A study of Saccharomyces cerevisiae with 12 samples.

Results

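The comparison asked what 25 min of Bdf1/2 depletion did to RNA synthesis and to RNA amounts in budding yeast (Saccharomyces cerevisiae) that overexpressed the extra-terminal (ET) domain of Bdf1. It was made of 6 of the 12 libraries of the series, chosen by strain and treatment: all libraries of strain RDY388 treated with 3-indoleacetic acid (IAA, replicates A, B and C) and with DMSO, its solvent (replicates A, B and C). RDY388, called the ET strain here, carries pGPD1-OsTIR1:HIS3 together with the tagged alleles BDF1-3xV5-mAID::URA3 and BDF2-3xV5-mAID::KanMX, and in addition pJR15:TRP1. OsTIR1 is a plant auxin receptor, and mAID is the degron through which auxin (IAA) triggers destruction of the tagged protein, so both groups carried the degrons on Bdf1 and Bdf2 and differed in IAA alone. pJR15, integrated at TRP1, expresses the Bdf1 ET domain with the nuclear localization signal of Rpl25 and a 3xV5 tag from the GPM1 promoter, ahead of the BDF1 terminator. Cultures were grown in YPD, treated with 1 mM IAA or DMSO for 25 min and labelled with 5 mM 4-thiouracil for 4 min. The ET strain is represented by this strain name only, no library without the degrons and with IAA was analysed here, and the effects of IAA and of Bdf1/2 loss therefore cannot be told apart. No library without 4-thiouracil was analysed here either. The remaining 6 libraries come from RDY73, the parent of RDY388, which has both degrons but no pJR15. They are replicates A, B and C of DMSO and of IAA, at the same doses and times. RDY73 is called the strain without pJR15 below, and its IAA libraries are thus also from Bdf1/2 depletion. These 6 libraries are used only where the text says so.

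Bdf1 and Bdf2 are the BET proteins of budding yeast. Their paired bromodomains bind acetylated histone tails, and their ET domain is a small protein-binding module that contacts short peptides of other nuclear proteins. Bdf1 associates with TFIID, the general transcription factor that brings TATA-binding protein to promoters, and BET proteins are needed for transcription by RNA polymerase II at most yeast genes. SLAM-seq separates new from old RNA: RNA made during the labelling carries 4-thiouracil, which after alkylation is read as C in place of T. A T>C read is a read with at least 2 such conversions, and T>C reads are called new RNA here. All reads of a gene, new and old, are called total reads, and the percent of a gene's reads that are T>C reads is its labelled share.

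The 6 libraries held 8837359 to 11395597 S. cerevisiae reads, of which 145088 to 330857 were T>C reads, and 478959 to 722822 reads of Schizosaccharomyces pombe. S. pombe cells, labelled in the same way, had been mixed in at a fixed ratio to S. cerevisiae cells before RNA was purified, so a value per S. pombe read is a value per amount of spike-in. The labelled share of the S. pombe reads was 3.05% ± 0.196 with DMSO and 2.99% ± 0.164 with IAA (SD, n = 3 each, exact permutation p = 0.8). The smallest p that 3 libraries against 3 allow is 0.1, so this test could not have passed at 0.05. Both C libraries of the ET strain held more S. cerevisiae reads per S. pombe read (20.0 with DMSO and 17.6 with IAA) than the A and B libraries of their groups (15.8 to 16.6 and 13 to 13.7). The TRP1 interval, which marks the integrated plasmid, held 457 to 1125 reads in these libraries and 12 to 41 in the 6 libraries of the strain without pJR15. The BDF1 interval held 253 to 561 normalised T>C reads here and 41.4 to 119 there. It includes the terminator that pJR15 also carries, so BDF1 values below hold reads of the transgene and of the tagged gene.

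New RNA fell after IAA in the ET strain as a whole. The labelled share of all S. cerevisiae reads was 2.94%, 2.90% and 3.42% with DMSO (A, B and C) and 1.64%, 1.73% and 1.83% with IAA. The groups did not overlap, and each letter pair fell by 1.18 to 1.58 percentage points. T>C reads per S. pombe read were 0.488, 0.458 and 0.684 with DMSO and 0.213, 0.236 and 0.322 with IAA, a mean 52.7% lower, again with no overlap. The ratio of S. cerevisiae to S. pombe reads was 17.5 ± 2.26 with DMSO and 14.7 ± 2.47 with IAA (SD, n = 3 each). These last groups overlapped, because DMSO A and DMSO B lay below IAA C, but IAA was lower in 3 of 3 letter pairs. The difference of -2.72 became -1.44 without DMSO C and -4.14 without IAA C. By exact two-sided permutation tests p was 0.1 for the labelled share and for T>C reads per S. pombe read, the smallest value that 3 libraries against 3 allow, and 0.3 for S. cerevisiae reads per S. pombe read.

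Gene by gene, 3677 of 6465 intervals had at least 1 T>C read in all 12 libraries and were tested with edgeR. A gene passed the test when its p, adjusted over all 3677 genes, was under 0.05. With T>C reads scaled by S. pombe reads, the median gene fell by 1.64 on the log2 scale (3.12-fold), with 3081 genes lower (83.8%) and 8 higher (0.218%). Total reads on the same scale fell by a median of 1.03 (2.05-fold), with 2789 genes lower (75.8%) and 37 higher (1.01%). The labelled share, which needs no scaling between libraries, fell by a median of 0.59 (1.51-fold), with 1410 genes lower (38.3%) and 4 higher (0.109%). Of the 3081 genes with less new RNA, 2680 also had fewer total reads, and 401 did not pass for total reads.

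The scale set how many genes rose. With T>C reads scaled by median-of-ratios size factors from S. cerevisiae total reads, the median gene fell by only 0.48. On that scale 444 genes were higher (12.1%) against 1109 lower (30.2%). The study also took its factors from total read counts at this time of depletion, and kept spike-in counts for its longer depletion. Its methods name DESeq2 for the normalization but do not say how the factors were formed from those counts. Summed S. cerevisiae reads, another scaling by total reads, gave 29 genes higher and 2927 lower (median -1.40). Total reads themselves had fallen for most genes, so the median-of-ratios factors compare a gene with the typical gene rather than with the amount of cells. Values scaled by median-of-ratios factors are called relative new RNA below, and values scaled by S. pombe reads are called new RNA per spike-in. A gene could therefore rise in relative new RNA and fall per spike-in. Total reads scaled by S. cerevisiae size factors gave 1649 genes higher and 933 lower in place of 37 and 2789. Libraries of the same letter deviated together in total reads, and with the letter as a block 76 genes were higher and 3018 lower. The count of higher genes also turned on single libraries: it was 14 without DMSO A, 19 without DMSO B, 93 without DMSO C, 57 without IAA A and 17 without IAA C.

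**Figure D1:**
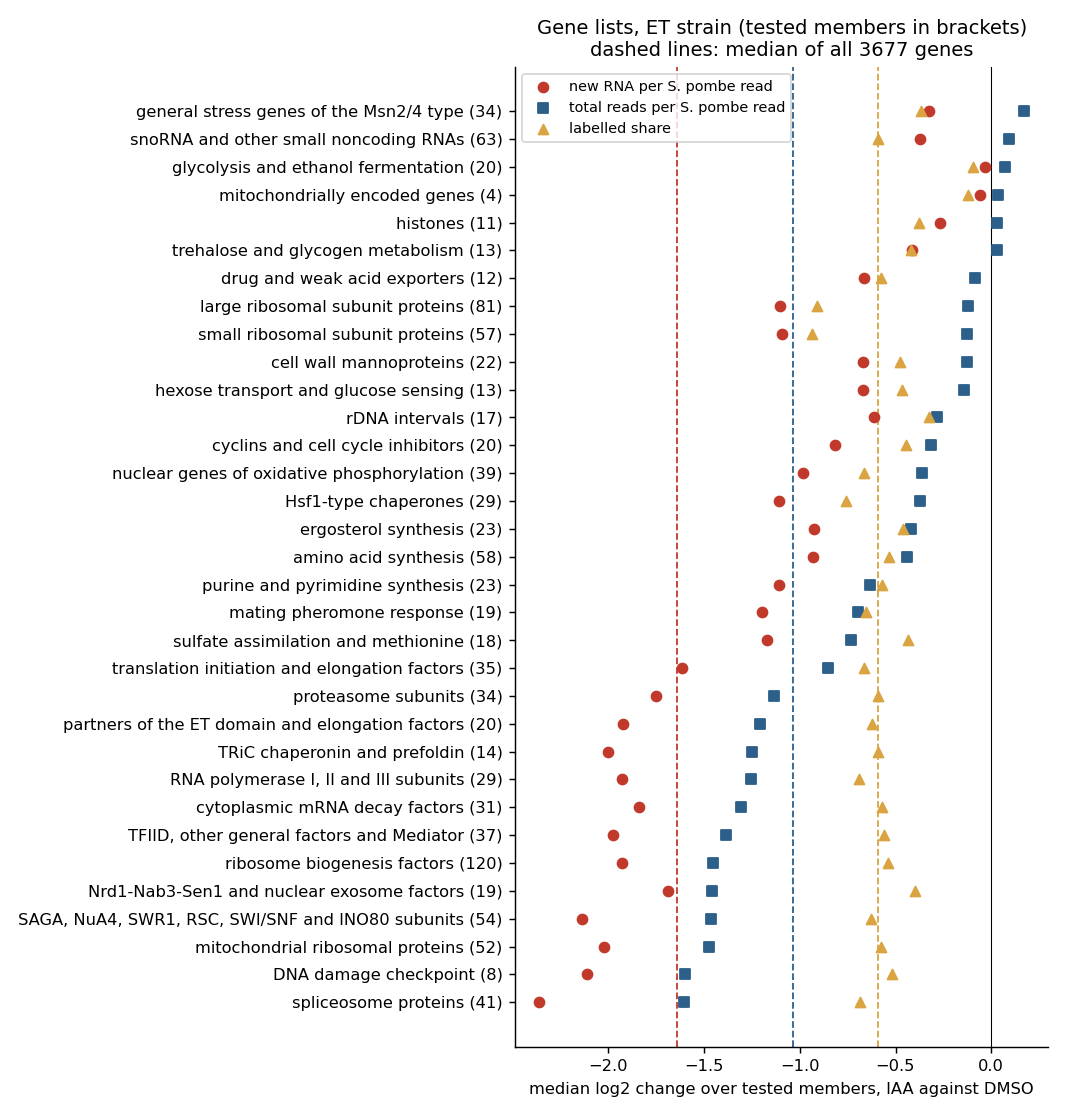
Median log2 change with IAA over the tested members of 33 gene lists in the ET strain, for new RNA per S. pombe read (circles), total reads per S. pombe read (squares) and labelled share (triangles). Dashed lines mark the medians of all 3677 genes tested (-1.64, -1.03 and -0.59). Lists are ordered by their median total reads, from spliceosome proteins (-1.61) to general stress genes (0.17).

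Gene lists differed in how far their new RNA and total reads fell. At one end stood spliceosome, chromatin, general transcription factor and ribosome biogenesis genes, whose total reads fell by medians of 1.39 to 1.61. At the other stood ribosomal protein, glycolytic, histone and general stress genes, whose medians lay between -0.13 and 0.17. All 33 lists had a lower median of new RNA per spike-in than 0, from -2.36 for spliceosome proteins to -0.03 for glycolysis. The medians of the labelled share ran in a narrower band, from -0.93 to -0.10, and their order differed from that of total reads: ribosomal protein genes, near 0 in total reads, had the lowest.

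Ribosomal protein genes, which supply the ribosome with its protein parts and are among the most strongly transcribed genes of growing yeast, lost new RNA without losing much total RNA. For the 57 genes of the small subunit, summed T>C reads per 1000 S. pombe reads were 30.2, 28.9 and 41.5 with DMSO and 13.2, 15.4 and 19.6 with IAA. The list's labelled share was 1.17%, 1.25% and 1.42% with DMSO and 0.619%, 0.684% and 0.687% with IAA. No IAA library overlapped a DMSO library in either measure. New RNA per spike-in fell for 56 of 57 small-subunit and 79 of 81 large-subunit genes (83.8% of all genes), with a median of -1.10 in both. Total reads fell for 3 of 57 and 11 of 81, with medians of -0.13 and -0.12, so fewer ribosomal protein genes passed for total reads (5.26% and 13.6%) than all genes tested. The labelled share fell for 56 of 57 and 78 of 81 (38.3% of all genes), with medians of -0.93 and -0.91 against -0.59 for all genes. In relative new RNA the medians were 0.08 and 0.06, with 8 and 15 genes higher and RPL34A the only gene lower, and the direction of the median turned on this scale.

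Within that group RPL15B stood out, with total reads down by 1.31, followed by RPL22B (-0.87) and RPL4B (-0.72). RPS27B, the small-subunit gene with the most new RNA, had 1.5%, 1.65% and 2.06% of its reads labelled with DMSO and 0.727%, 0.891% and 0.881% with IAA. Its new RNA fell by 1.19 ± 0.21 per spike-in (SE, adjusted p = 4.8e-08), while total reads changed by -0.13 ± 0.15 and relative new RNA by -0.02 ± 0.12, neither of which passed. RPL41A, which encodes the shortest ribosomal protein, had 4858, 4220 and 6063 T>C reads per 1000000 S. pombe reads with DMSO and 2480, 2867 and 4053 with IAA. Its new RNA fell per spike-in by 0.69 ± 0.19 and rose in relative terms by 0.47 ± 0.10. Many ribosomal protein genes have a near-identical second copy, and how reads were split between copies was set by the alignment.

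**Figure D2:**
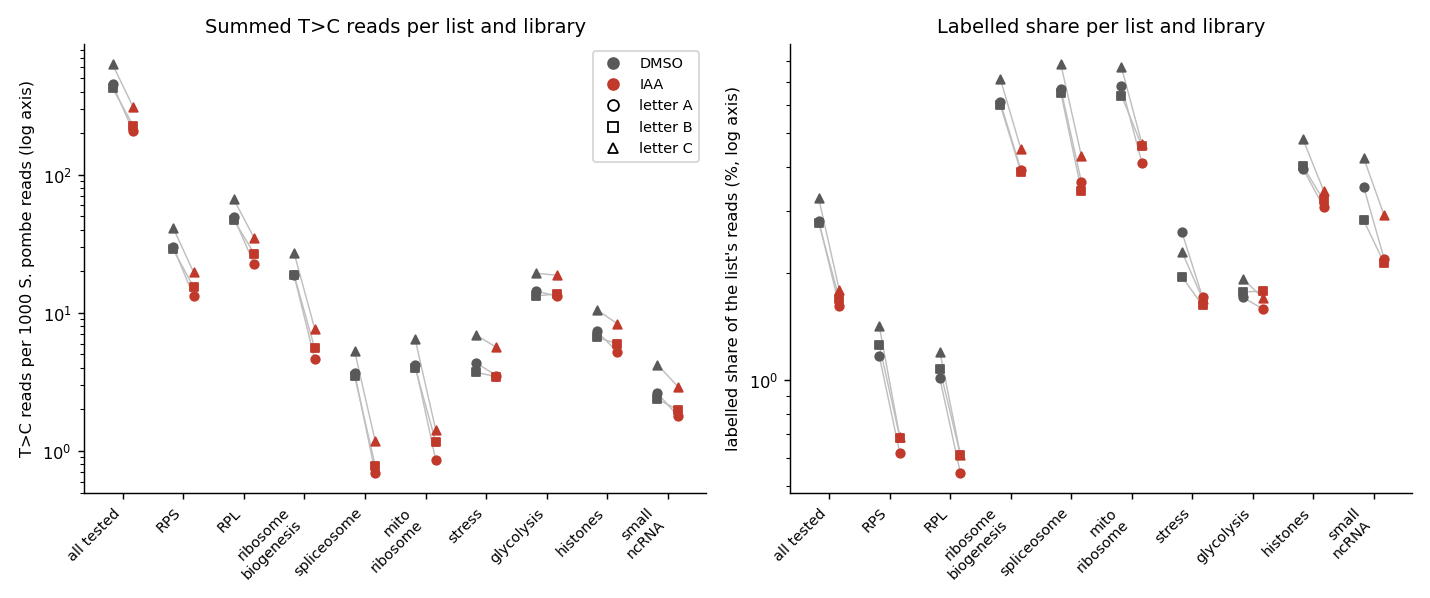
Values of 9 gene lists and of all tested genes in each library of the ET strain, on log axes: left, summed T>C reads per 1000 S. pombe reads, and right, the labelled share of the list's reads in percent. Grey symbols are DMSO, red symbols IAA, and lines join libraries of the same letter. For ribosome biogenesis genes the T>C sums drop from between 18.7 and 27.0 to between 4.62 and 7.67, and for glycolytic genes they stay between 13.3 and 19.4.

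Ribosome biogenesis factors, the nucleolar proteins that process rRNA and assemble subunits, behaved otherwise. Their summed T>C reads per 1000 S. pombe reads were 18.7, 18.8 and 27.0 with DMSO and 4.62, 5.54 and 7.67 with IAA. Their total reads on the same scale were 306, 313 and 380 with DMSO and 118, 143 and 171 with IAA. All 120 tested genes of 128 fell in new RNA per spike-in (median -1.93), 119 fell in total reads (median -1.46), and 86 (71.7%) fell in relative new RNA (median -0.75). Over all genes these shares were 83.8%, 75.8% and 30.2%. UTP6, a component of the small-subunit processome, was the only 1 of the 120 that did not pass for total reads (0.07). Their share of all T>C reads was 3.83% to 4.10% with DMSO and 2.17% to 2.38% with IAA. RLP7, which acts in assembly of the large subunit and had the most new RNA of the list, fell by 1.78 ± 0.23 in new RNA per spike-in and by 1.32 ± 0.16 in total reads. RIO1, a kinase of late small-subunit maturation, had the largest fall of total reads in the list (-2.26 ± 0.21). BMT5, which methylates a uridine of 25S rRNA and is outside the list, had 350, 368 and 469 scaled reads with DMSO and 47.8, 88.1 and 98.1 with IAA (-2.34 ± 0.21, adjusted p = 5.9e-26).

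Promoter sequence is shown for genes at both ends, because a known stress element and a known ribosome biogenesis element can be read directly in it. The windows run from 350 to 101 bases before the start codon and were read from the R64 genome, 5′ to 3′ on the strand of the gene. In capitals are the stress element (AGGGG or CCCCT), to which the stress activators Msn2 and Msn4 bind, and the PAC element (GATGAG or CTCATC) of ribosome biogenesis promoters. Other letters are in lower case. HSP12 lies at chrVI:106906-107155 (+), DDR2 at chrXV:231856-232105 (-), TSL1 at chrXIII:70274-70523 (+) and BMT5 at chrIX:183228-183477 (-).
HSP12: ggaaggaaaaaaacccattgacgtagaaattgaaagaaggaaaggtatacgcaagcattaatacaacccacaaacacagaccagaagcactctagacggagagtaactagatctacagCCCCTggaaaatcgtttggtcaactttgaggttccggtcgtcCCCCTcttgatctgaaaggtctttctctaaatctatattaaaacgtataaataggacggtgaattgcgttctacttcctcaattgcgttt
DDR2: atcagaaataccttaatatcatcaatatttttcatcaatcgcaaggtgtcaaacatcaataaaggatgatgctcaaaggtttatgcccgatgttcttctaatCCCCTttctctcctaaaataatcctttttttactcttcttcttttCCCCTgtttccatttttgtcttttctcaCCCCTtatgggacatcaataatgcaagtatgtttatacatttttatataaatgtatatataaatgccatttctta
TSL1: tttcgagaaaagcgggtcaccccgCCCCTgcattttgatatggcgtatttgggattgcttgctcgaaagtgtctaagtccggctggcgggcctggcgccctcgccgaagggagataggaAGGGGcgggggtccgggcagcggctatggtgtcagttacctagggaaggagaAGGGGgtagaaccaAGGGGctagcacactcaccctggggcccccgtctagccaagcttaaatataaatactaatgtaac
BMT5: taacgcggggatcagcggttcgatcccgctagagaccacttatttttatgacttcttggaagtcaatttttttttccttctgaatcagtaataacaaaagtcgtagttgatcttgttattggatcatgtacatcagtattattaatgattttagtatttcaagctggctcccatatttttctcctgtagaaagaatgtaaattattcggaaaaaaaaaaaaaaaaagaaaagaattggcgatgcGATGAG
HSP12 holds 2 stress elements, DDR2 3 and TSL1 4, and BMT5 holds 1 PAC at the end of its window. These windows are examples with matches. Other genes with large relative rises had few: NRD1, HRP1, TDH2 and ENO1 hold 0 stress elements and SER3 holds 1. RLP7 and RIO1 of the ribosome biogenesis list hold 0 PAC, and BMT5 is outside that list. A match describes letters and is no measurement of binding.

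Over the 3519 protein-coding genes tested whose window could be read, 20.4% held a stress element and 16.9% a PAC element. Of the 372 with higher relative new RNA, 34.7% held a stress element and 13.4% a PAC. Of the 1102 with lower relative new RNA, the shares were 14% and 20.4%. Of the ribosome biogenesis genes 60.8% held a PAC and 10.0% a stress element, and of the general stress genes, a list that is defined by Msn2/4 control, 91.2% held a stress element. The letters TATAAA or TTTATA were in 38.7% of all windows, in 50.0% of those of genes with higher relative new RNA, and in 75% of the 20 glycolytic windows. TTCNNGAA or GAANNTTC, part of the heat shock element, was in 19.6% of all windows and in 79.3% of those of the Hsf1-type chaperones.

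Genes of the transcription machinery lost new RNA and total RNA, as most genes did: 83.8% of all genes fell per spike-in and 75.8% in total reads. Of 29 tested subunits of RNA polymerases I, II and III, 28 fell in new RNA per spike-in (median -1.93) and all 29 in total reads (median -1.25). All 37 tested genes of 57 for TFIID, the other general factors and Mediator fell in both measures (medians -1.97 and -1.39). SPT15, which encodes TATA-binding protein, fell least of the 37 per spike-in (-1.20 ± 0.28, with relative new RNA at -0.02 ± 0.19), and TAF4, a TFIID subunit, fell most (-3.14). SRB7, a Mediator subunit, had 301, 356 and 380 scaled total reads with DMSO and 47.8, 66.7 and 95.2 with IAA, a change of -2.31 ± 0.22 with a labelled share that did not pass (0.10 ± 0.42). All 20 tested genes for known partners of BET ET domains and for elongation and termination factors fell in both measures (medians -1.92 and -1.21), with SPT6, a histone chaperone that travels with RNA polymerase II, at -1.86 ± 0.26 and -0.79 ± 0.16.

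Chromatin complexes showed the same direction as most genes (83.8% and 75.8% lower), with SNF11 and SWI1 apart. Of 54 tested subunits (of 70) of SAGA, NuA4, SWR1, RSC, SWI/SNF and INO80, 53 fell in new RNA per spike-in (median -2.14) and 52 in total reads (median -1.46). Both, subunits of SWI/SNF, did not pass for total reads (-0.11 and -0.03), and SNF11 was the only one with higher relative new RNA (1.12). YNG2, the NuA4 subunit with the most new RNA, had 220, 163 and 280 T>C reads per 1000000 S. pombe reads with DMSO and 19.1, 57.6 and 67.4 with IAA. Its groups were far apart, and IAA A was the lowest.

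Most RNA processing genes lost new and total RNA, where 83.8% of all genes fell per spike-in and 75.8% in total reads. All 41 tested spliceosome genes of 74 lost new RNA per spike-in (median -2.36, the lowest of the 33 lists) and total reads (median -1.61). In relative new RNA 30 of 41 fell (73.2%, against 30.2% of all genes). Summed T>C reads per 1000 S. pombe reads were 3.66, 3.47 and 5.26 with DMSO and 0.693, 0.781 and 1.18 with IAA. PRP6, of the U4/U6.U5 particle, fell most: its raw T>C reads were 42, 51 and 72 with DMSO and 4, 4 and 7 with IAA, -3.61 ± 0.44 per spike-in and -2.42 ± 0.38 in relative terms. For cytoplasmic mRNA decay, 31 of 31 tested genes lost new RNA per spike-in and 30 lost total reads, with medians (-1.84 and -1.31) close to those of all genes (-1.64 and -1.03).

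In the list of Nrd1-Nab3-Sen1 and nuclear exosome factors, 18 of 19 genes fell in new RNA per spike-in and in total reads, and NRD1 rose. Over all genes 83.8% and 75.8% fell. Nrd1 binds nascent RNA, ends transcription of short noncoding units with Nab3 and Sen1, and limits its own transcript by early termination. NRD1 (chrXIV:172338-174315, R64, minus strand) had 10, 12 and 11 raw T>C reads with DMSO and 40, 40 and 32 with IAA. Per 1000000 S. pombe reads that is 16.9, 16.6 and 23.0 against 58.7, 59.0 and 52.6, with no overlap. Total reads of NRD1 were 254, 207 and 242 against 645, 512 and 783, and its labelled share did not pass (0.17 ± 0.33), so new and total RNA rose by similar amounts (1.61 ± 0.39 per spike-in and 1.47 ± 0.18). NAB3, by contrast, fell by 1.48 ± 0.25 and 0.90 ± 0.17. HRP1, a subunit of the cleavage factor of mRNA 3′ ends that is also limited by early termination of its own transcript, rose as NRD1 did: its total reads were 1277, 1433 and 1655 with DMSO and 2898, 3246 and 3630 with IAA (1.16 ± 0.16), and new RNA per spike-in rose by 0.88 ± 0.33.

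SER3 rose as well. SER3 encodes an enzyme of serine synthesis and is held down in rich medium by transcription of the noncoding SRG1 RNA through its promoter. Its T>C reads per 1000000 S. pombe reads were 54.1, 69.2 and 106 with DMSO and 147, 128 and 194 with IAA. Its total reads were 194, 246 and 327 against 574, 633 and 753, up by 1.36 ± 0.19. Its interval shares 327 bp with that of SRG1 on the same strand, so reads of both cannot be fully told apart there. NRD1, SER3 and HRP1 had the largest rises of total reads of all genes tested. Other genes known for early termination or for upstream transcription, a list assembled after the values were seen, were not higher per spike-in, although 4 of them were in relative new RNA. IMD2 was at -0.36 ± 0.31 and URA2 at -0.58 ± 0.31 per spike-in, neither of which passed, and both rose in relative terms (0.81 ± 0.23 and 0.56 ± 0.24). DEF1 (-0.75 ± 0.24) and PHO84 (-0.78 ± 0.21) fell per spike-in and rose in relative terms (0.41 ± 0.15 and 0.40 ± 0.13). CLN3 (-0.81 ± 0.35) and PCF11 (-1.92 ± 0.45) fell per spike-in and did not pass in relative terms (0.36 ± 0.28 and -0.72 ± 0.40), and ADE12 passed on neither scale (-1.12 ± 0.57 and 0.03 ± 0.55).

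**Figure D3:**
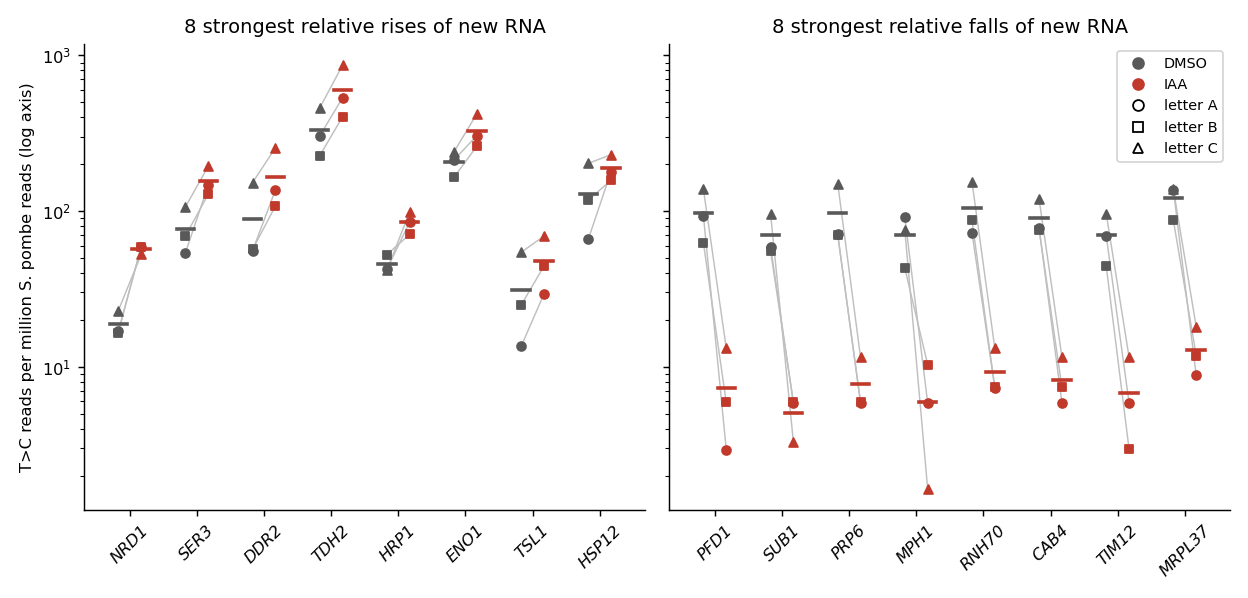
T>C reads per 1000000 S. pombe reads (log axis) in each library of the ET strain for the 8 genes with the largest rises (left) and the 8 with the largest falls (right) of relative new RNA. Grey symbols are DMSO, red symbols IAA, bars are means, and lines join libraries of the same letter. NRD1 goes from between 16.6 and 23.0 to between 52.6 and 59.0, and PFD1 from between 62.3 and 138 to between 2.94 and 13.2. TSL1, on the left, does not pass on this scale.

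General stress genes had the highest median of total reads of the 33 lists. These are the targets of Msn2 and Msn4, which respond to heat, oxidation and starvation. Of 34 tested genes, 19 (55.9%, against 12.1% of all genes) rose in relative new RNA and none fell (median 0.84, against -0.48 for all genes). Per spike-in the median was -0.33, with 2 genes higher (DDR2 and HSP12) and 6 lower (17.6%, against 83.8% of all genes). The direction of most members thus depended on the scale. In total reads 5 rose and 2 fell (median 0.17), against 1.01% and 75.8% of all genes. The chaperone gene HSP12, whose promoter is printed above, had 65.9, 118 and 203 T>C reads per 1000000 S. pombe reads with DMSO and 179, 158 and 230 with IAA, so its groups overlapped on that scale and DMSO C lay far above DMSO A. DDR2, a small stress-induced gene, likewise had 55.8, 56.7 and 152 against 137, 108 and 255. Both were higher in 3 of 3 letter pairs (0.57 ± 0.27 and 0.94 ± 0.28, adjusted p = 0.039 and 0.0012). TSL1, a subunit of trehalose synthase, had 8, 18 and 26 raw T>C reads with DMSO and 20, 30 and 42 with IAA, rose in relative new RNA by 1.83 ± 0.32 and did not pass per spike-in (0.66 ± 0.38, adjusted p = 0.094). SOD1, superoxide dismutase, fell per spike-in (-0.45 ± 0.20) and rose in relative terms (0.75 ± 0.12).

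Glycolysis had the median of new RNA per spike-in nearest to 0 of the 33 lists. Over all genes 12.1% rose in relative new RNA, 83.8% fell per spike-in and 75.8% fell in total reads. Of 20 tested genes of glycolysis and ethanol fermentation, 18 rose in relative new RNA and none fell (median 1.14). Per spike-in the median was -0.03, with 2 higher and 2 lower, and in total reads 0.07, with 3 higher and 2 lower. Summed T>C reads per 1000 S. pombe reads were 14.3, 13.3 and 19.4 with DMSO and 13.3, 13.7 and 18.7 with IAA, and the groups overlapped. As a share of all T>C reads the pathway went from between 2.83% and 2.94% to between 5.81% and 6.23%. The labelled share of its reads was 1.71%, 1.77% and 1.93% with DMSO and 1.59%, 1.78% and 1.70% with IAA.

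The genes of that pathway that rose were TDH2 and ENO1, for glyceraldehyde-3-phosphate dehydrogenase and enolase. TDH2 had 304, 227 and 459 T>C reads per 1000000 S. pombe reads with DMSO and 534, 403 and 865 with IAA (0.87 ± 0.22), and its labelled share rose as well (0.35 ± 0.12, adjusted p = 0.014). ENO1 rose by 0.68 ± 0.24. Their close paralogs TDH3 (-0.28 ± 0.19) and ENO2 (-0.19 ± 0.20) did not pass per spike-in and rose in relative new RNA (0.89 ± 0.11 and 0.98 ± 0.11). ADH4 and ADH3, alcohol dehydrogenase genes, fell per spike-in (-2.18 and -1.0) and did not pass in relative terms (-1.01 and 0.20). GPM1, phosphoglycerate mutase, whose promoter drives the ET transgene, had 874, 766 and 1165 T>C reads per 1000000 S. pombe reads with DMSO and 809, 757 and 1207 with IAA (-0.01 ± 0.20, against a rise of 1.16 ± 0.12 in relative terms), and its total reads were also not different by the test (0.11 ± 0.15). BDF1, with the transgene's reads in it, was at -0.25 ± 0.22 in new RNA per spike-in and 0.17 ± 0.16 in total reads, and BDF2 at -0.41 ± 0.25 and -0.17 ± 0.16, none of which passed. In relative new RNA both rose (BDF1 0.90 ± 0.13 and BDF2 0.77 ± 0.16), with BDF1 at 297, 253 and 267 normalised T>C reads with DMSO and 497, 466 and 561 with IAA.

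Protein folding and turnover genes divided, against the 83.8% of all genes lower per spike-in and 75.8% in total reads. Of the 29 tested Hsf1-type chaperones all fell in new RNA per spike-in (median -1.11), but only 16 in total reads (median -0.37), with HSP42, HSC82 and KAR2 between -0.02 and -0.07. In relative new RNA 5 chaperones rose and 3 fell (17.2% and 10.3%, against 12.1% and 30.2% of all genes). The genes of TRiC and prefoldin, which fold actin and tubulin, fell in both measures in 14 of 14 (medians -2.0 and -1.25). PFD1, a prefoldin subunit, had the largest relative fall of all genes that met the naming rule: its raw T>C reads were 55, 45 and 66 with DMSO and 2, 4 and 8 with IAA, and its labelled share went from 5.03%, 3.88% and 5.89% to 0.627%, 0.905% and 1.74%. Among 34 tested proteasome genes 33 fell in both measures (medians -1.75 and -1.13), and the exception was RPN4, the transcription factor of the proteasome genes, whose total reads rose by 0.34 ± 0.16, with new RNA at -0.16 ± 0.21 per spike-in and higher by 1.03 ± 0.13 in relative terms.

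Mitochondrial genes split by genome and by role. All 52 tested genes of 68 for mitochondrial ribosomal proteins fell in both measures (medians -2.02 and -1.48), against 83.8% and 75.8% of all genes. MRPL37 had 81, 63 and 66 raw T>C reads with DMSO and 6, 8 and 11 with IAA. Nuclear genes of oxidative phosphorylation fell less, 29 of 39 in new RNA per spike-in (median -0.98, against 0.18 in relative new RNA) and 20 of 39 in total reads (median -0.36). The 4 tested genes of the mitochondrial genome, which a separate RNA polymerase transcribes, did not pass in either measure (medians -0.06 and 0.03). In relative new RNA 3 of the 4 rose, against 12.1% of all genes. OLI1, a subunit of ATP synthase, had a labelled share of 1.00%, 1.07% and 1.10% with DMSO and 0.916%, 1.09% and 0.989% with IAA. Relative new RNA of OLI1 rose by 1.17 ± 0.17, against -0.01 ± 0.25 per spike-in. How 3′ mRNA libraries capture mitochondrial RNA was not tested.

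Histone genes had a median of total reads near 0 (0.03), while their labelled share fell in 8 of 11 (72.7%, median -0.38), against 38.3% of all genes. The 9 genes for the core histones and the linker histone Hho1 rose in relative new RNA by 0.57 to 1.05. They are 81.8% of the list, against 12.1% of all genes that rose. Per spike-in these 9 lay between -0.62 and -0.11, with HTA1 and HTB1 the only ones of the 9 that fell. HHO1 was the only one of the 9 whose total reads fell (-0.40). The variant genes fell on both scales of spike-in: CSE4, the centromeric H3, was at -2.70 in new RNA and -2.10 in total reads, and HTZ1, the H2A variant of promoters, at -1.58 and -1.02. In relative new RNA CSE4 fell by 1.53 and HTZ1 did not pass (-0.42). Cyclin genes also ranged widely per spike-in, from PCL8 (-2.45) to PCL1 (0.07 ± 0.27, with relative new RNA higher by 1.22 ± 0.19). PCL5, a cyclin that acts on Gcn4, had 459, 476 and 562 scaled total reads with DMSO and 569, 605 and 867 with IAA (0.45 ± 0.18, adjusted p = 0.015), but without IAA C the change was 0.24 and no longer passed.

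Biosynthetic and cell surface genes lay between these ends. Of 58 tested genes of amino acid synthesis, 38 fell and 2 rose (SER3 and ARG3) per spike-in (median -0.93, against 0.23 in relative new RNA), and 32 fell in total reads, with SER3, ARG3 and ARG1 among those that rose. ARG1 and ARG3 act in arginine synthesis. For ergosterol synthesis 17 of 23, and for purine and pyrimidine synthesis 16 of 23, fell in new RNA per spike-in (73.9% and 69.6%, against 83.8% of all genes, with medians of -0.92 and -1.11). In relative new RNA their medians were 0.24 and 0.06, with 6 and 5 genes higher and 2 lower in each (30.2% of all genes were lower). Cell wall mannoprotein genes rose in relative new RNA in 12 of 22 and fell per spike-in in 13 of 22, with 1 of 22 lower in total reads. Of 12 tested drug and weak acid exporters, 7 rose in relative new RNA and 4 fell per spike-in. Over all genes 12.1% rose in relative new RNA, 83.8% fell per spike-in and 75.8% fell in total reads.

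PDR12, a plasma membrane exporter of weak organic acids, had the largest rise of total reads outside NRD1, SER3 and HRP1. Its scaled total reads were 162, 163 and 221 with DMSO and 378, 302 and 403 with IAA (0.99 ± 0.19, adjusted p = 5.1e-07). Its new RNA did not pass per spike-in (-0.08 ± 0.37) and rose in relative terms (1.08 ± 0.31, adjusted p = 0.004), and its labelled share fell from 14.5%, 10.7% and 15.9% to 5.85%, 4.41% and 8.85%. PDR5 and SNQ2, exporters of other drugs, fell in new RNA per spike-in (-0.75 ± 0.20 and -0.82 ± 0.21) and rose in relative terms (0.43 ± 0.12 and 0.35 ± 0.12), and their total reads did not pass. IAA is itself an organic acid, and its own effect cannot be told apart from that of depletion here.

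Small noncoding RNAs, as far as they were captured, had total reads near their DMSO level. Of 63 tested snoRNA and other small noncoding RNA genes, 14 fell in new RNA per spike-in and 28 rose in relative new RNA. Their total reads rose for 8 and fell for 3 (median 0.09). Over all genes 83.8% fell per spike-in and 12.1% rose in relative new RNA, and in total reads 1.01% rose and 75.8% fell. SNR41, a guide RNA, had 429, 354 and 522 scaled total reads with DMSO and 628, 627 and 825 with IAA, but its interval shares 153 bp with that of SNR70. TLC1, the telomerase RNA, was among the 3 small noncoding RNA genes that fell in total reads (-0.49). Of 17 tested rDNA intervals, transcribed by RNA polymerases I and III, 11 fell per spike-in and 9 rose in relative new RNA, with medians of -0.61 and 0.57. rDNA intervals overlap each other. 3′ mRNA libraries are made neither for rDNA nor for small noncoding RNAs, so the values of both lists are counts of what was captured.

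**Figure D4:**
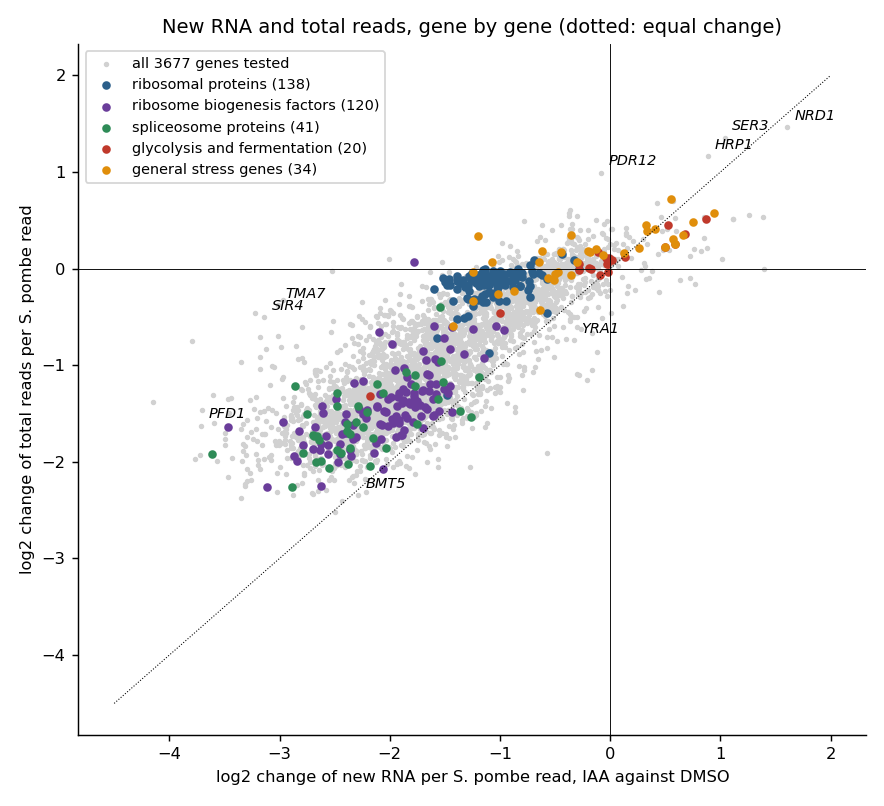
Log2 change of total reads against log2 change of new RNA, both per S. pombe read, for each of the 3677 genes tested in the ET strain, with 5 gene groups coloured and the dotted line marking equal change. Most genes lie above the dotted line (total reads fell less than new RNA), ribosomal protein genes form a cluster near 0 in total reads and -1.10 in new RNA, and NRD1, SER3 and HRP1 lie at the upper right.

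New and total RNA fell by unequal amounts in some genes. The vertical distance from the line of equal change is the change of the labelled share. TMA7, a ribosome-associated protein gene, had a labelled share of 0.802%, 0.681% and 0.645% with DMSO and 0.122%, 0.116% and 0.0994% with IAA (-2.64 ± 0.33), with total reads down by only 0.37 ± 0.16. SIR4, a silencing protein gene, went from 6.05%, 3.51% and 6.74% to 0.753%, 0.793% and 0.992% (-2.64 ± 0.29), with total reads at -0.51 ± 0.17. In both genes every IAA library lay far below every DMSO library. GSH2, glutathione synthetase, fell by 2.14 ± 0.40 in labelled share and by 1.04 ± 0.18 in total reads.

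The opposite was rare. YRA1, an mRNA export adaptor whose intron takes part in control of its own level, had a labelled share of 7.87%, 6.37% and 8.29% with DMSO and 10.3%, 9.43% and 10.4% with IAA (0.43 ± 0.14, adjusted p = 0.0096), with total reads down by 0.74 ± 0.16. Without DMSO B the adjusted p was 0.08. The other genes with a higher labelled share were TDH2, HER1 (0.69 ± 0.29, adjusted p = 0.048) and ALG7 (0.88). No gene passed as higher without DMSO B, and 6 did without DMSO C. Among the largest relative falls, SUB1, a transcription coactivator, MPH1, a DNA helicase, RNH70, an RNA exonuclease, and TIM12, of the mitochondrial import machinery, each kept 1 to 8 raw T>C reads per IAA library, from 31 to 74 with DMSO. RNH70 and CAB4, a gene of coenzyme A synthesis, share 87 bp of interval and fell by similar amounts (-2.28 ± 0.36 and -2.27 ± 0.38), and TIM12 shares 154 bp with a neighbour. Falls of this size rest on few reads after depletion, so their size is less certain than their direction. SRN2, of the ESCRT-I complex, fell by 2.31 ± 0.21 in total reads.

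**Figure D5:**
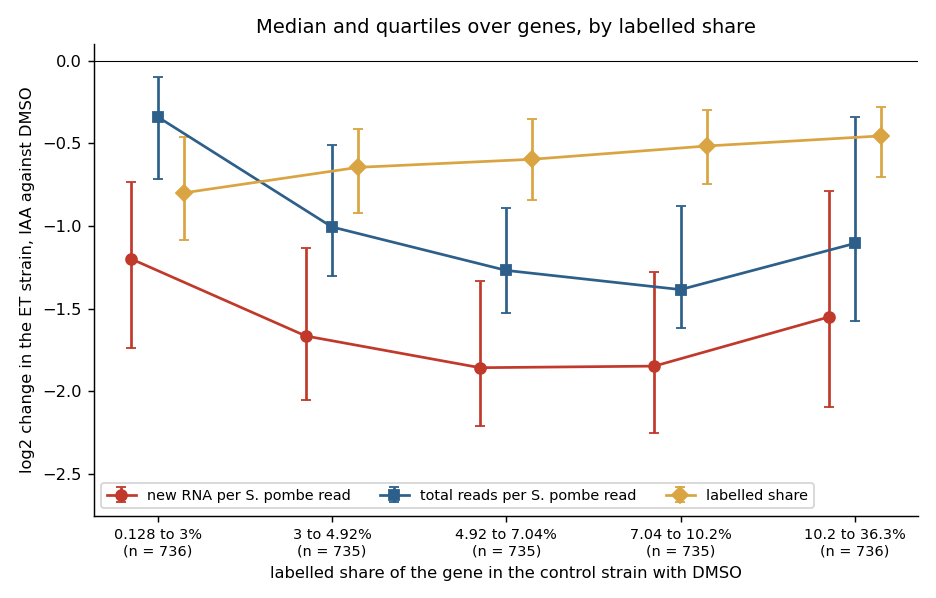
Median and quartiles of the log2 change in the ET strain over genes in 5 bins of equal size, ordered by the gene's labelled share in the strain without pJR15 under DMSO (x axis, percent), for new RNA and total reads per S. pombe read and for the labelled share. Total reads fell least in the bin of lowest labelled share (-0.34) and most in the 4th bin (-1.38), and the change of the labelled share went from -0.80 to -0.46.

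A gene's labelled share before depletion reflects in part how fast its RNA is replaced. It was taken from libraries outside the comparison, those of the strain without pJR15 under DMSO, to keep the axis apart from the changes. In the 736 genes with the lowest share (0.128% to 3.00%) total reads fell by a median of 0.34 and 50.8% passed as lower. In the next 3 bins the medians were -1.01, -1.27 and -1.38, with 80.4% to 88.6% lower. The bin of highest share (10.2% to 36.3%) returned to -1.10, with 71.5% lower. Across the 3677 genes Spearman's rho between labelled share and change of total reads was -0.325, and -0.273 over the 3539 genes that encode no ribosomal protein. Genes are not independent replicates, and genes of low share also had more reads (a median of 2298 per library in the lowest bin and 238 in the highest). Without the 131 ribosomal protein genes in the lowest bin its median was -0.47. New RNA per spike-in varied less over the bins (-1.20 to -1.86).

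The response of the ET strain was set against that of the strain without pJR15 by the interaction of strain and treatment. None of the 67 genes named by rule differed between strains in the change of relative new RNA (lowest adjusted p = 0.352, with 4 at an unadjusted p under 0.05). Over all genes 4 of 3677 did, RDN25-1, ITS2-1 and RDN58-1, which overlap in the rDNA, and PIK1, a phosphatidylinositol 4-kinase gene. PIK1 had 25.9, 27.1 and 27.2 normalised T>C reads with DMSO and 22.2, 20.2 and 18.2 with IAA in the ET strain, and 31.9, 23.7 and 44.3 against 3.21, 9.03 and 1.72 in the other strain. The size factors of those last 3 libraries were 0.623, 0.443 and 0.580, so their raw T>C counts were smaller still. The PIK1 difference thus rests on very few reads, and its size is uncertain. These 4 were named after their values were seen. For total reads and for the labelled share no gene passed (with no adjustment 100 and 205 had a p under 0.05), and strains differed by a median of 0.09 in each. For relative new RNA 220 of 3677 genes had an unadjusted p under 0.05, and some genes reach such a p with no difference between strains. Estimated differences in relative new RNA ran from -0.73 at the 10th percentile to 0.78 at the 90th. That range includes the error of each gene's estimate, so it is not the range of true differences. A p that misses the threshold does not show that the strains responded alike.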

How the data were processed

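Counts of reads and of T>C reads per gene interval were deposited by the authors. Their files came from 3′ mRNA libraries trimmed with fastp 0.23.2 and aligned and counted with SLAM-DUNK 0.4.3, separately for S. cerevisiae and S. pombe. Intervals follow the R64 annotation, 6462 of 6465 matched it by name, and 661 tested intervals overlap another on the same strand. No library was dropped, and no 2 libraries held identical counts.

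Genes with at least 1 T>C read in all 12 libraries (3677) were fitted with edgeR 4.0.16 in R 4.3.3 (quasi-likelihood test, Benjamini-Hochberg adjustment, threshold 0.05), with all 12 libraries sharing the estimate of spread. Scaling was by median-of-ratios factors of S. cerevisiae total reads for relative new RNA, by summed S. pombe reads for total reads and new RNA per spike-in, and by each gene's own total reads for the labelled share. Log2 changes are IAA minus DMSO. Fits were tested on simulated data. The labels do not say whether letters mark separate cultures, but the study's methods call the replicates of its SLAM-seq experiments biological. They do not say whether DMSO and IAA libraries of the same letter came from the same culture. The p-values measure the spread between these libraries. Same-letter deviations correlated at 0.31, 0.225 and 0.281 for total reads, so letters pair the libraries there, and more weakly in new RNA. The reported fits have no letter block. Counts with the block are given beside the total-read counts and, for the other fits, with the alternatives below.

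Genes were named by rule: up to 8 rises and 8 falls of relative new RNA (mean of at least 20 T>C reads, no overlap of groups), then 4 and 4 of total reads (mean of at least 200 reads), then 3 and 3 of labelled share, and the member of each list with most new RNA, with the exporters PDR12, SNQ2 and PDR5 and the genes of the construct (TRP1, RPL25, GPM1, BDF2, BDF1) as checks. Other list members named stand at the ends of their lists or passed alone, and were chosen after their values were seen. The members and lists were chosen with earlier results of these data known. Alternatives were other scalings, DESeq2 1.42.0, other minimum counts, the letter as a block, the 6 ET libraries alone and each library left out. A result that needs a withheld item is not reported here.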

Additional observations from a re-analysis of the deposited data

How the results depend on the processing

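The direction of the median gene in new RNA was lower under every alternative run, and the scaling moved it most. Relative new RNA gave 29 genes higher and 2927 lower (median -1.40) with summed S. cerevisiae reads, 8 and 3081 (-1.64) with S. pombe reads, and 772 and 420 (-0.11) with TMM factors of T>C reads. Its median was -0.66 with no minimum count, -0.57 with at least 1 T>C read in each ET library and -0.57 with a mean of at least 10. DESeq2 gave 381 and 833. Leaving out 1 library gave 347 to 426 higher, 805 to 1101 lower and medians of -0.52 to -0.40, and without both C libraries 351 and 662. Total reads gave 326 higher (median -0.79) with summed S. cerevisiae reads, 1649 higher and 933 lower (median 0.14) with S. cerevisiae size factors, 12 higher with the 6 ET libraries alone, 4694 lower (median -1.21) with no minimum, and medians of -1.18 and -1.13 with the other minimums. Leaving out 1 library gave 14 to 93 higher and medians of -1.18 to -0.91, and without both C libraries 59 were higher. The labelled share gave 1 higher and 1023 lower with DESeq2, 0 to 6 higher, 949 to 1457 lower and medians of -0.65 to -0.51 without 1 library, and 877 lower without both C libraries. With the replicate block, relative new RNA gave 458 higher and 1144 lower, the labelled share 4 and 1416, total reads 76 higher, and new RNA per spike-in 13 higher, which was 19 without both C libraries. Leaving out both C libraries, and the block for new RNA per spike-in, were chosen after seeing the data. Same-letter deviations of new RNA correlated at 0.125, 0.0833 and 0.117, and those of different letters at -0.0989 to -0.00815. Letters thus paired the libraries in new RNA too, more weakly than in total reads.

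Of the named genes, the log2 change of relative new RNA turned sign with another scaling in these. With TMM factors RPS27B was at 0.35. With summed S. cerevisiae reads the values were RPL41A -0.45, HYP2 -0.11, HSC82 -0.49, SOD1 -0.18, UGP1 -0.13, TDH3 -0.036, HXT2 -0.31, QCR6 -0.16, ILV5 -0.27, MUP1 -0.46, ERG5 -0.52, URA3 -0.66, MF(ALPHA)1 -0.71, CWP2 -0.094, FLR1 -0.51, RDN37-2 -0.15, BDF1 -0.020, BDF2 -0.15, RPL25 -0.36, PDR5 -0.50 and SNQ2 -0.57. With summed S. pombe reads they were RPL41A -0.69, HYP2 -0.36, RPN4 -0.16, HSC82 -0.73, SOD1 -0.45, UGP1 -0.38, TDH3 -0.28, HXT2 -0.56, QCR6 -0.39, OLI1 -0.012, ILV5 -0.52, MUP1 -0.70, ERG5 -0.77, URA3 -0.90, HHF2 -0.21, MF(ALPHA)1 -0.95, CWP2 -0.34, FLR1 -0.76, RDN37-2 -0.40, BDF1 -0.25, BDF2 -0.41, GPM1 -0.015, RPL25 -0.62, PDR5 -0.75 and SNQ2 -0.82. With summed S. cerevisiae reads HYP2, SOD1, UGP1, TDH3, HXT2, QCR6, CWP2, RDN37-2, BDF1 and BDF2 did not pass the test. With summed S. pombe reads HYP2, RPN4, UGP1, TDH3, QCR6, OLI1, HHF2, CWP2, RDN37-2, BDF1, BDF2 and GPM1 did not pass. The median of all genes moved in the same direction, from -0.48 to -0.11, -1.40 and -1.64 with these 3 scalings. The cause for single genes was not tested. Of the other values for named genes, 46 fell short of the threshold under an alternative and 10 newly passed it.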

Other observations

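Fitted with no minimum count, 479 of the 2537 genes outside the test were lower and 10 higher in relative new RNA. Genes outside the test included 3 with at least 10 T>C reads in each DMSO library of the ET strain and 0 in each IAA library. AIM22, of lipoate attachment in mitochondria, had 12, 17 and 12 with DMSO, at least 5.00-fold lower per S. pombe read with a floor of 3 counts per library. ENA5, a sodium pump gene, had 17, 12 and 10 (at least 4.81-fold lower), and HXT8, of the hexose transporter family, had 10, 12 and 11 (at least 4.10-fold lower). These genes had no test in the fit reported above and were named after their values were seen.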
